A study of Mus musculus with 4 samples.

Results

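The genes described here are 10 genes of the cGAS pathway, which senses DNA in the cytosol, and of its interferon and chemokine output. They were taken by name from 50679 gene identifiers and each matched 1 identifier. The set holds the sensor Cgas, the adaptor Sting1 (listed as Tmem173 in the annotation), the kinase Tbk1, the transcription factors Irf3 and Irf7, the nucleases and nucleotide enzymes Trex1 and Samhd1, and the secreted products Ifnb1, Ccl5 and Cxcl10.

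RNA was measured in mouse mammary tumour cells with PCNA 211F (2 libraries) and with wild-type PCNA (WT, 2 libraries). The column headers of the deposited table write the allele as Y211F. PCNA is the ring-shaped clamp that keeps DNA polymerases on the template. Cells of both genotypes carried the polyoma middle T oncogene (PyMT), came from tumours of mice 10 weeks old, were selected with an EpCAM antibody after dissociation, and were grown with 10% serum after plating at a density of 100000. The sources used here do not give the promoter that drives PyMT, nor whether the 2 libraries of a genotype came from separate animals. The p-values therefore set a difference against the spread of these libraries, which may not be the spread between animals.

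Cyclic GMP-AMP synthase, the product of Cgas, binds double-stranded DNA in the cytosol and makes the dinucleotide cGAMP. cGAMP binds STING, which moves from the endoplasmic reticulum to the Golgi and recruits the kinase TBK1. TBK1 phosphorylates IRF3, which then enters the nucleus and induces Ifnb1 and chemokine genes. IRF7 is itself interferon-induced and amplifies the response, while TREX1 degrades cytosolic DNA and SAMHD1 breaks down deoxynucleotides. CCL5 and CXCL10 attract T cells and NK cells, and their genes also respond to NF-kB.

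The libraries of each genotype differed widely in mesenchymal markers, and those of WT also in epithelial markers. Summed over 10 epithelial markers, levels were 3326 and 3529 FPKM in 211F 1 and 211F 2, against 3119 FPKM in WT 1 and 7.26 FPKM in WT 2 (FPKM, fragments mapped to a gene, divided by transcript length and library total). The medians of these markers differed more, at 89.4 and 152 FPKM in 211F 1 and 211F 2, against 251 and 0.578 FPKM in WT 1 and WT 2. Summed over 12 mesenchymal and fibroblast markers, levels were 4237 and 35.8 FPKM in 211F 1 and 211F 2, against 267 and 3481 FPKM in WT 1 and WT 2. The medians of these markers were 9.90 and 0.320 FPKM in 211F 1 and 211F 2, against 0.629 and 86.2 FPKM in WT 1 and WT 2. WT 2 thus nearly lacked epithelial transcripts although its label calls it epithelial. Each of the 10 genes of the set is therefore given below with its value in every library, while some wider pathway genes are given only as a difference. Pcna itself was at 173 and 119 FPKM in 211F 1 and 211F 2, against 155 and 147 FPKM in WT 1 and WT 2, a level that does not check an allele that changes the protein. The depth of the libraries, inferred from the step between low values, was 1.10 times that of WT 1 in 211F 1, 0.934 times in 211F 2 and 1.72 times in WT 2.

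Promoter sequence is shown for the sensor Cgas, for Ifnb1, and for Cxcl10, since Cgas was apart between the genotypes, Ifnb1 was near 0 and Cxcl10 spanned a wide range. Each is the 250 bases before the RefSeq start on GRCm38.p6, read 5′ to 3′ on the gene's own strand, which is the minus strand for all 3. Capitals mark matches, on either strand, to an interferon response element (GAAANNGAAA) or an NF-kB element (GGGANNNNCC). The windows are chr5:92348890-92349139 for Cxcl10, chr4:88522795-88523044 for Ifnb1 and chr9:78443238-78443487 for Cgas.
Cxcl10: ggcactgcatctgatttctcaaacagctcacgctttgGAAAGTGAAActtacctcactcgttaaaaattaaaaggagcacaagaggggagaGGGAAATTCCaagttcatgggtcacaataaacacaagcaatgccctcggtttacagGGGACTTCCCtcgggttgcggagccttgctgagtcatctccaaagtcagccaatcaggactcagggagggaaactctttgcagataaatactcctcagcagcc
Ifnb1: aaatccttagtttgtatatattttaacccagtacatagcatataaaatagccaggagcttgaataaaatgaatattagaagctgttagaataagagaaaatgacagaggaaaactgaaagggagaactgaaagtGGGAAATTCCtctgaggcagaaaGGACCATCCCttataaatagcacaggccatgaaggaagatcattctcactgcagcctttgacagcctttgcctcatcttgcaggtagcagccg
Cgas: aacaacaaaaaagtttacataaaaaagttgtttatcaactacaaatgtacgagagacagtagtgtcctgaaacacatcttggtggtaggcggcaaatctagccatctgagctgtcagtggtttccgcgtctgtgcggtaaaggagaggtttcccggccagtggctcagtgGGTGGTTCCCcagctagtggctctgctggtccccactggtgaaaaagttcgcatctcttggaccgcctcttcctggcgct

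Of 32851 RefSeq promoter windows of this length, 2.98% held the interferon response element and 17.6% the NF-kB element. The Cxcl10 window held 1 interferon response element, GAAAGTGAAA, starting 213 bases before the start of the gene. It also held the NF-kB matches GGGAAATTCC at 159 bases and GGGACTTCCC at 103 bases, the second of which matches on both strands. The Ifnb1 window held GGGAAATTCC at 116 bases and GGACCATCCC, a match on the opposite strand, at 93 bases. It held no match to the interferon response element, a pattern with a fixed spacer. The Ifnb1 stretch gaaaactgaaa has a longer spacer and is therefore not counted, so the search can miss related elements. The Cgas window held 1 NF-kB match and no match to the interferon response element. The windows of Tbk1, Irf3, Irf7, Trex1 and Samhd1 held neither motif. A match describes letters in the window and is not evidence of binding.

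Cgas was higher in both 211F libraries. Cgas (ENSMUSG00000032344; GRCm38 chromosome 9, 78430526 to 78443237, minus strand, protein coding) was at 11.7 FPKM in 211F 1 and 12.2 FPKM in 211F 2, against 3.58 FPKM in WT 1 and 6.42 FPKM in WT 2. The 211F libraries lay close together, the WT libraries were 1.79-fold apart, and the groups did not overlap. The mean was 11.9 ± 0.345 FPKM in 211F and 5.004 ± 2.01 FPKM in WT (SD, n = 2 each). Each 211F library exceeded each WT library, by 1.82-fold (211F 1 over WT 2) to 3.39-fold (211F 2 over WT 1). The difference, 211F minus WT, was 1.15 ± 0.39 on the log2(FPKM + 1) scale (SE; limma unadjusted p = 0.0406, adjusted p = 0.9999), so Cgas did not pass the test over all genes. Exons of Cgas share 201 bases with the pseudogene Gm8093 on the other strand, which was listed at 0 in all 4 libraries.

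The test covered 12767 genes that averaged 1 FPKM or more, and limma called 0 of them (0%) at an adjusted p of 0.05. Before adjustment, 241 genes (1.89%) had a p below 0.05, and of the 9 tested members 1, Cgas, was among them. The unadjusted limma p of Cgas was above that threshold with no filter (0.0547), with a filter at a mean of 5 FPKM (0.0517) and with the replicate number as a block (0.0830). It was also above it without WT 1 (0.119), without 211F 1 (0.146) or without 211F 2 (0.164). Groups that did not overlap were found in 26.8% of all tested genes, 15.2% with 211F higher and 11.6% with 211F lower. Among the tested members they were found in 2 of 9, Cgas with 211F higher and Irf7 with 211F lower, a share near that background. An exact permutation test of 2 libraries against 2 cannot go below p = 0.333 (two-sided).

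**Figure D1:**
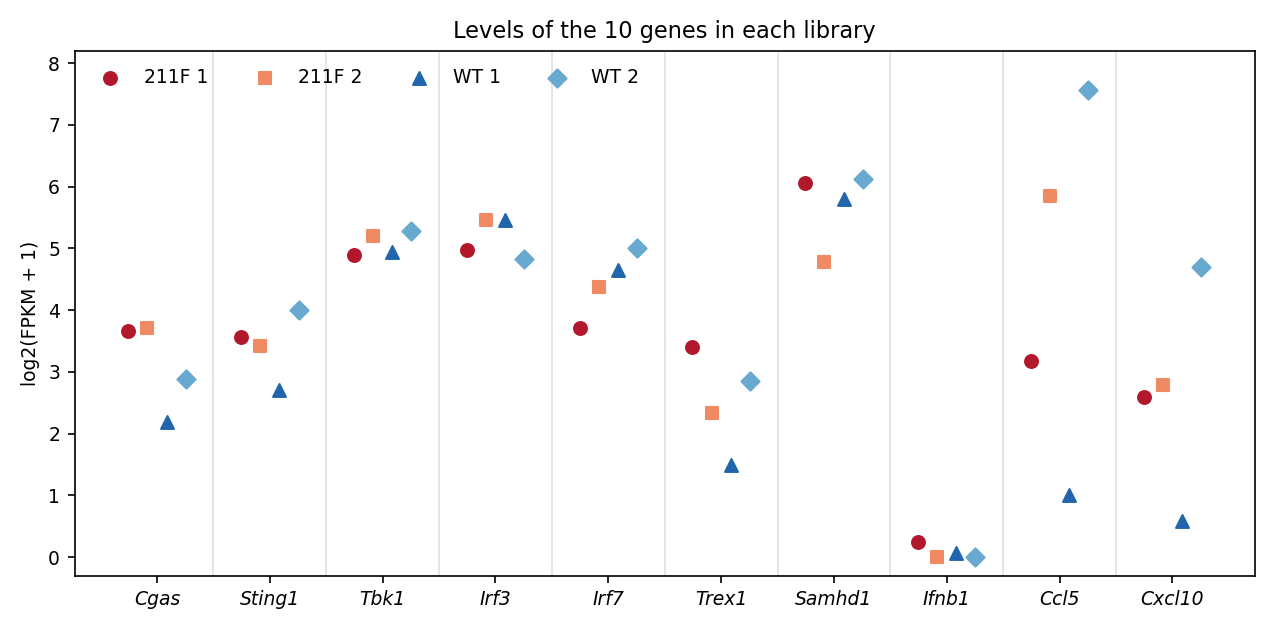
Levels of the 10 genes as log2(FPKM + 1), 1 point for each library (211F 1, 211F 2, WT 1, WT 2). Both 211F points lie above both WT points for Cgas and below them for Irf7, while Ccl5 and Cxcl10 are lowest in WT 1 and highest in WT 2.

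Among the genes whose profile over the 4 libraries lay closest to that of Cgas were Snora73b, a small nucleolar RNA gene, and Msra, a methionine sulfoxide reductase gene. Their root mean square distances to Cgas, on centred log2(FPKM + 1) values, were 0.0883 and 0.125. Msra was at 6.49 and 5.47 FPKM in 211F 1 and 211F 2, against 1.84 and 3.14 FPKM in WT 1 and WT 2. With 4 libraries such likeness is a description only.

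The adaptor and the kinase did not separate the genotypes. Sting1 was at 10.9 FPKM in 211F 1 and 9.64 FPKM in 211F 2, against 5.53 FPKM in WT 1 and 15.1 FPKM in WT 2. Both 211F libraries lay between the WT libraries, which were 2.73-fold apart, and the difference was 0.13 ± 0.54 (SE; limma adjusted p = 0.9999). Tbk1 was the least variable of the 9 tested members, with its highest library 1.31 times its lowest. It was at 28.8 and 35.6 FPKM in 211F 1 and 211F 2, against 29.7 and 37.7 FPKM in WT 1 and WT 2. The Tbk1 difference was -0.06 ± 0.27, with a 95% interval of -0.80 to 0.68.

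Neither transcription factor passed the test. Irf3, the factor that TBK1 activates directly, was at 30.6 and 43.2 FPKM in 211F 1 and 211F 2, against 42.9 and 27.5 FPKM in WT 1 and WT 2. Its groups overlapped, with the higher library of each genotype at nearly the same level, and the difference was 0.08 ± 0.35 (SE; limma adjusted p = 0.9999). Irf7 (ENSMUSG00000025498; chromosome 7, 141262706 to 141266481, minus strand) stood at 12.1 FPKM in 211F 1 and 19.6 FPKM in 211F 2, against 24.0 FPKM in WT 1 and 31.3 FPKM in WT 2. Both 211F libraries were below both WT libraries, with ratios between 0.386 (211F 1 over WT 2) and 0.818 (211F 2 over WT 1). The mean was 15.9 ± 5.35 FPKM in 211F and 27.6 ± 5.14 FPKM in WT (SD, n = 2 each), and the difference of -0.79 ± 0.35 did not pass (SE; limma unadjusted p = 0.0895, adjusted p = 0.9999). Exons of Irf3 share 88 bases with Bcl2l12 and those of Irf7 share 45 bases with Phrf1, each on the other strand.

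The genes of DNA and nucleotide removal varied within both genotypes. Trex1, an exonuclease for cytosolic DNA, was at 9.56 and 4.05 FPKM in 211F 1 and 211F 2, against 1.80 and 6.21 FPKM in WT 1 and WT 2. WT 1 was the lowest library, and WT 2 lay between the 211F libraries. The difference was 0.70 ± 0.70 (SE; limma adjusted p = 0.9999), and it was 0.019 without WT 1 and 1.38 without WT 2. All 1147 exon bases of Trex1 are also annotated as exon of Atrip on the same strand, so the split of reads between them is uncertain. Atrip, a partner of the checkpoint kinase ATR, was at 7.06 and 8.57 FPKM in 211F 1 and 211F 2, against 5.68 and 6.90 FPKM in WT 1 and WT 2. Samhd1, a deoxynucleotide triphosphohydrolase, was at 65.4 and 26.5 FPKM in 211F 1 and 211F 2, against 54.7 and 69.1 FPKM in WT 1 and WT 2. Samhd1 was low in 211F 2 alone, and the difference was -0.55 ± 0.51 (SE; limma adjusted p = 0.9999).

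Ifnb1, the interferon beta gene, was near 0. Ifnb1 (ENSMUSG00000048806; chromosome 4, 88522025 to 88522774, minus strand) stood at 0.189 FPKM in 211F 1 and listed at 0 in 211F 2, against 0.0497 FPKM in WT 1 and a listed 0 in WT 2. At the annotated length of 750 bases, these are worth about 5.46 fragments in 211F 1 and 1.31 in WT 1. The level of 3 fragments was 0.104 and 0.122 FPKM in 211F 1 and 211F 2, against 0.114 and 0.0662 FPKM in WT 1 and WT 2. Only 211F 1 lay above that level, so no fold change is given, and Ifnb1 was not among the genes tested. Of the other interferon genes listed, Ifna1, Ifna2, Ifna4, Ifna5, Ifne, Ifnl2, Ifnl3 and Ifng were listed at 0 in all 4 libraries.

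Of the 9 tested members, the chemokines had the widest gaps between the WT libraries. Ccl5 (ENSMUSG00000035042; chromosome 11, 83525778 to 83530518, minus strand) stood at 8.01 FPKM in 211F 1 and 56.6 FPKM in 211F 2, against 0.998 FPKM in WT 1 and 188 FPKM in WT 2. Both 211F libraries lay between the WT libraries. 211F 2 was 7.07-fold above 211F 1, and WT 2 was 188-fold above WT 1. Measured as log2(FPKM + 1), 4.32% of tested genes had a wider gap between the 211F libraries and 0.392% a wider gap between the WT libraries.

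Cxcl10 (ENSMUSG00000034855; chromosome 5, 92346638 to 92348889, minus strand) stood at 5.04 FPKM in 211F 1 and 5.93 FPKM in 211F 2, against 0.506 FPKM in WT 1 and 25.0 FPKM in WT 2. The 211F libraries were nearly level, and both lay between WT libraries that were 49.3-fold apart. A wider gap between the WT libraries was found in 2.55% of tested genes. The difference, 211F minus WT, was 0.05 ± 1.49 for Cxcl10 and 0.23 ± 2.51 for Ccl5 (SE; limma adjusted p = 0.9999 for each). The 95% interval reached from -4.07 to 4.16 for Cxcl10 and from -6.72 to 7.18 for Ccl5, so neither a large increase nor a large decrease could be told from 0. Exons of Cxcl10 share 133 bases with Art3 on the other strand, which was at 0.358 FPKM or less.

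**Figure D2:**
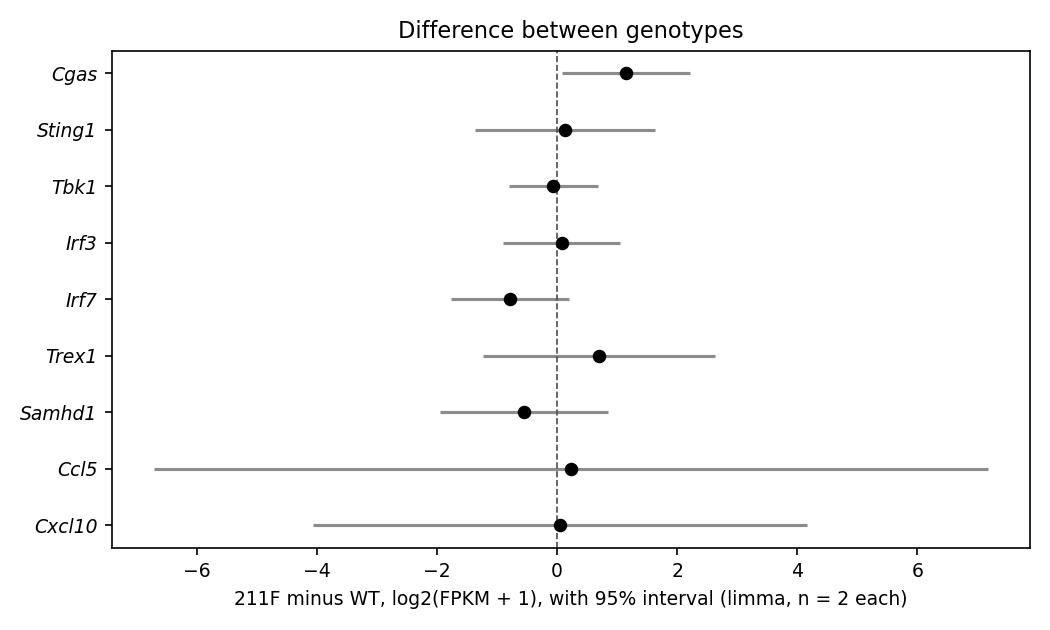
Difference between genotypes for the 9 tested genes, 211F minus WT on the log2(FPKM + 1) scale, as points with 95% intervals from limma (n = 2 each). The interval of Cgas lies above 0 (0.08 to 2.21, before adjustment over all genes), that of Irf7 reaches from -1.77 to 0.19, and those of Ccl5 and Cxcl10 are the widest.

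The sign of the chemokine difference followed the choice of WT library. Ccl5 in 211F 1 and 211F 2 was 8.02 and 56.7 times its level in WT 1, but 0.0426 and 0.301 times its level in WT 2. Cxcl10 in 211F 1 and 211F 2 was 9.96 and 11.7 times its level in WT 1, but 0.202 and 0.237 times its level in WT 2. Without WT 2 the limma difference was 3.51 for Ccl5 and 2.10 for Cxcl10, and without WT 1 it was -3.05 and -2.01. Leaving out 211F 2 also turned both signs, to -1.11 for Ccl5 and -0.05 for Cxcl10. Sting1 had the same pattern, with 211F 1 and 211F 2 at 1.97 and 1.74 times WT 1 but 0.72 and 0.638 times WT 2. Cgas was above 1 and Irf7 below 1 in all 4 ratios of a 211F library to a WT library.

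**Figure D3:**
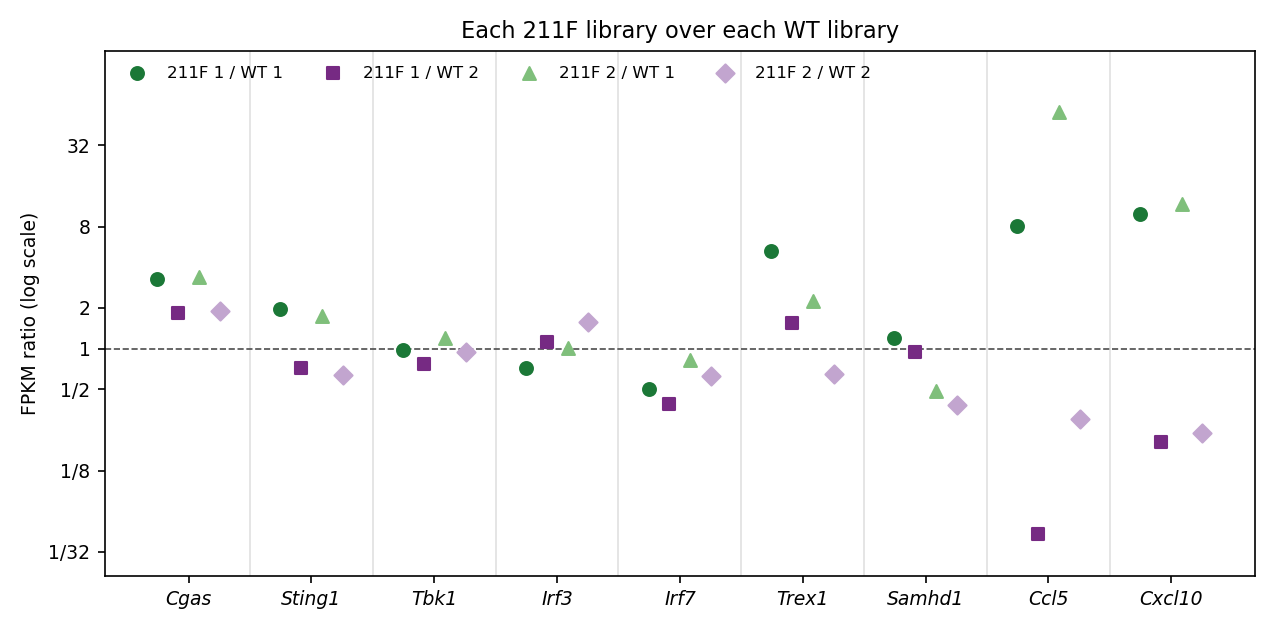
FPKM ratio of each 211F library to each WT library for the 9 tested genes, on a log axis with the dashed line at a ratio of 1. All 4 ratios lie above the line for Cgas and below it for Irf7, while those of Ccl5 and Cxcl10 are above it against WT 1 and below it against WT 2.

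Ccl5 and Cxcl10 had the same order of libraries, WT 1 lowest, then 211F 1, 211F 2 and WT 2. This order, noticed after the values were seen, was found in 4.71% of all tested genes. In the wider list it was found in 7 of 95 tested genes (7.37%), which were Mavs, Chuk, Ikbkg, Relb, Rnaset2a, Ccl2 and Ifit2. WT 1 was the lowest library for 5 of the 9 tested members, against 27% of all tested genes. WT 2 was the highest library for 6 of the 9, against 30.2% of all tested genes.

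Markers of other cells that make or receive these chemokines were low. Of 12 markers of T and NK cells, Cd3d, Cd3g and Cd2 were listed at 0 in all 4 libraries, and the summed level was 3.69 and 0.0130 FPKM in 211F 1 and 211F 2, against 0.51 and 0.306 FPKM in WT 1 and WT 2. Of that sum, 3.42 FPKM in 211F 1 was Trac, a T cell receptor gene segment. Ptprc, the pan-leukocyte antigen, was at 0.0180 FPKM or less in every library. The 12 macrophage markers summed to 8.36 and 15.3 FPKM in 211F 1 and 211F 2, against 70.2 and 12.6 FPKM in WT 1 and WT 2. Most of the WT 1 sum was Cd14 at 67.2 FPKM, while the macrophage antigen Adgre1 was at 0.0296 FPKM or less. Of 8 dendritic cell markers, 2 reached 1 FPKM in each library, and Bst2, which interferon also induces, made up most of their summed 119 and 77.5 FPKM in 211F 1 and 211F 2, against 81.3 and 120.1 FPKM in WT 1 and WT 2. The 7 endothelial markers summed to 2.16 FPKM or less. Neither the epithelial nor the mesenchymal sum followed the chemokine levels over all 4 libraries. WT 2, the library highest in Ccl5 and Cxcl10, had the lowest epithelial sum, 7.26 FPKM. From WT 1 to 211F 1 to 211F 2, the epithelial sum rose from 3119 to 3326 to 3529 FPKM as both chemokines rose. 211F 1, with the highest mesenchymal sum, had less Ccl5 than 211F 2. Most of that sum was Vim and Fn1, at 1856 and 1851 FPKM. Col1a1, Col1a2 and Col3a1 were at 2.70, 0.286 and 3.63 FPKM in 211F 1, against 437, 416 and 118 FPKM in WT 2. Acta2 and Thy1 were higher in 211F 1, at 442 and 10.7 FPKM, against 95.8 and 1.67 FPKM in WT 2. With the mean log2(FPKM + 1) of the epithelial markers as a covariate in limma, the difference was 2.76 for Ccl5 and 1.66 for Cxcl10, against 0.23 and 0.05 without it, and 0 members were called (unadjusted p = 0.145 and 0.0297, adjusted p = 0.997 for each). Since WT 2 alone nearly lacked epithelial transcripts, this covariate largely sets WT 2 aside and cannot separate epithelial content from that library. Without WT 2 the differences were 3.51 and 2.10. The part of the mesenchymal markers was not tested. In bulk libraries, fewer cells that express a gene and less RNA per cell cannot be told apart.

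The wider pathway was followed in 120 further genes, of which 95 passed the expression filter and 0 passed the test in either direction. Of these 51 had a positive and 44 a negative difference, with a median of 0.02, beside 53.1% positive and a median of 0.03 over all tested genes. Groups were apart in 16 of the 95 with 211F higher and in 9 with 211F lower, beside 15.2% and 11.6% of all tested genes. Among the members 6 of 9 differences were positive, with a median of 0.08. Without WT 1 the members' median was -0.52, and without WT 2 it was 0.78.

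Of 8 tested genes that handle cGAMP, 7 had a positive difference, with a median of 0.48, beside 53.1% positive over all tested genes. None of the 8 passed the test (0 called by limma). An unadjusted limma p below 0.05 was found for 1, beside 1.89% of all tested genes. The groups were apart in 5 of the 8, 4 with 211F higher and 1 with 211F lower. Over all tested genes they were apart in 26.8%, 15.2% with 211F higher and 11.6% with 211F lower. Lrrc8c, a subunit of the volume-regulated channel through which cGAMP passes between cells, was at 36.2 and 31.0 FPKM in 211F 1 and 211F 2, against 17.8 and 15.2 FPKM in WT 1 and WT 2. The groups did not overlap, and the difference was 0.98 ± 0.25 (SE; limma unadjusted p = 0.0176, adjusted p = 0.9999). Lrrc8e, another subunit of the channel, lay the other way, at 1.52 and 0.256 FPKM in 211F 1 and 211F 2, against 3.08 and 3.08 FPKM in WT 1 and WT 2. Enpp1, the hydrolase that degrades cGAMP outside cells, was at 22.2 and 1.09 FPKM in 211F 1 and 211F 2, against 8.22 and 3.69 FPKM in WT 1 and WT 2. Enpp1 was thus highest and lowest in the 2 libraries of the same genotype.

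Of 10 STING traffic genes 0 had groups that did not overlap, and their differences lay between -0.28 and 0.36. Among 7 tested partners of TBK1 the groups were apart in 5, 2 with 211F higher and 3 with 211F lower, and in the NF-kB arm in 1 of 10, with 211F higher, beside 26.8% of all tested genes. Ikbke, a kinase closely related to Tbk1, was at 3.46 and 20.4 FPKM in 211F 1 and 211F 2, against 14.6 and 7.53 FPKM in WT 1 and WT 2. Optn, an adaptor that binds TBK1, was at 7.54 and 16.5 FPKM in 211F 1 and 211F 2, against 17.4 and 21.7 FPKM in WT 1 and WT 2. In the NF-kB arm, 7 of 10 differences were positive with a median of 0.17, beside 53.1% positive over all tested genes. Tnfaip3, the NF-kB feedback inhibitor A20, was at 55.1 and 27.3 FPKM in 211F 1 and 211F 2, against 19.8 and 14.5 FPKM in WT 1 and WT 2. Its difference of 1.15 ± 0.44 did not pass (SE; limma unadjusted p = 0.0591, adjusted p = 0.9999).

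Other sensors of nucleic acid had 4 of 12 positive differences, with a median of -0.42, beside 53.1% positive over all tested genes. Aim2, the DNA sensor of an inflammasome, was at 0.471 FPKM in 211F 1 and listed at 0 in 211F 2, against 0.482 in WT 1 and 10.6 in WT 2. Aim2 was therefore substantial in WT 2 alone. Zbp1, a sensor of Z-form nucleic acid, was at 20.1 and 10.4 FPKM in 211F 1 and 211F 2, against 14.1 and 33.1 FPKM in WT 1 and WT 2. Ifi203, of the same family as Aim2 and in a cluster of close paralogs that can share reads, was at 5.25 and 6.19 FPKM in 211F 1 and 211F 2, against 7.43 and 22.0 FPKM in WT 1 and WT 2. Among RNA sensors, Ifih1 (MDA5) was at 11.7 and 14.5 FPKM in 211F 1 and 211F 2, against 8.61 and 8.72 FPKM in WT 1 and WT 2. Rigi (RIG-I) was at 50.2 and 51.6 FPKM in 211F 1 and 211F 2, against 50.1 and 43.1 FPKM in WT 1 and WT 2. Their adaptor Mavs had a difference of -0.01 ± 0.32 (SE), and Tlr3, an endosomal RNA receptor, one of 1.38 ± 0.70. Tlr3 was at 37.8 and 27.5 FPKM in 211F 1 and 211F 2, against 22.9 and 5.86 FPKM in WT 1 and WT 2.

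Genes that remove or edit other nucleic acids had 4 of 8 positive differences, beside 53.1% positive over all tested genes. Of the RNase H2 subunits, which cleave RNA in hybrids with DNA, Rnaseh2b was at 18.8 and 10.8 FPKM in 211F 1 and 211F 2, against 8.89 and 8.45 FPKM in WT 1 and WT 2. Rnaseh2a and Rnaseh2c had differences of -0.45 ± 0.35 and -0.29 ± 0.28 (SE). Dnase2a, the lysosomal DNase, had one of -0.35 ± 0.40.

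Of 15 genes of the interferon receptors and their signalling, 14 passed the expression filter, with a median difference of 0.01. Groups were apart in 2 of the 14 with 211F higher and in 3 with 211F lower, beside 15.2% and 11.6% of all tested genes. Ifnar1 was at 25.1 and 28.4 FPKM in 211F 1 and 211F 2, against 27.4 and 29.6 FPKM in WT 1 and WT 2. Ifnar2, the other receptor chain, was at 24.6 and 29.1 FPKM in 211F 1 and 211F 2, against 32.3 and 60.1 FPKM in WT 1 and WT 2. Both 211F libraries lay below both WT libraries for Ifnar2, by -0.70 ± 0.39 (SE; limma adjusted p = 0.9999). Ifngr2, a chain of the interferon gamma receptor, had a difference of -0.48 ± 0.30. Stat2, which carries the signal to the nucleus, had a difference of -0.51 ± 0.58, and Irf9, the DNA-binding part of the same complex, one of 0.22 ± 0.24. Stat2 was at 13.1 and 11.4 FPKM in 211F 1 and 211F 2, against 10.3 and 30.3 FPKM in WT 1 and WT 2.

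Interferon-induced genes lay lowest in WT 1 for 7 of 13 tested members and highest in WT 2 for 7 of 13. Over all tested genes these shares were 27% and 30.2%. Their median level was 14.3 and 16.1 FPKM in 211F 1 and 211F 2, against 7.86 and 25.8 FPKM in WT 1 and WT 2, so both 211F libraries lay between the WT libraries, as for Ccl5 and Cxcl10. Their median difference was 0.11, with 8 of 13 positive, beside 53.1% positive over all tested genes. Groups were apart in 1 of the 13, Rsad2, with 211F higher, and in 0 with 211F lower, beside 15.2% and 11.6% of all tested genes. Rsad2, the antiviral enzyme viperin, was at 3.18 and 3.23 FPKM in 211F 1 and 211F 2, against 0.507 and 2.01 FPKM in WT 1 and WT 2. Its difference was 0.98 ± 0.55 (SE; limma adjusted p = 0.9999).

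Other products of these pathways varied by library. Cxcl9 and Cxcl11, which share the receptor of Cxcl10, were at 0.153 and 0.0363 FPKM in 211F 1 and at 0.213 and 0.0212 FPKM in 211F 2, against 0.322 and 0.118 FPKM in WT 1 and 0.0234 and 0.746 FPKM in WT 2. Both were under the expression filter. Ccl2, a monocyte chemokine gene, was at 6.05 and 6.68 FPKM in 211F 1 and 211F 2, against 1.86 and 527 FPKM in WT 1 and WT 2. Ccl2 had the same order of libraries as Ccl5 and Cxcl10. The receptor genes Cxcr3 and Ccr3 were listed at 0 in all 4 libraries.

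**Figure D4:**
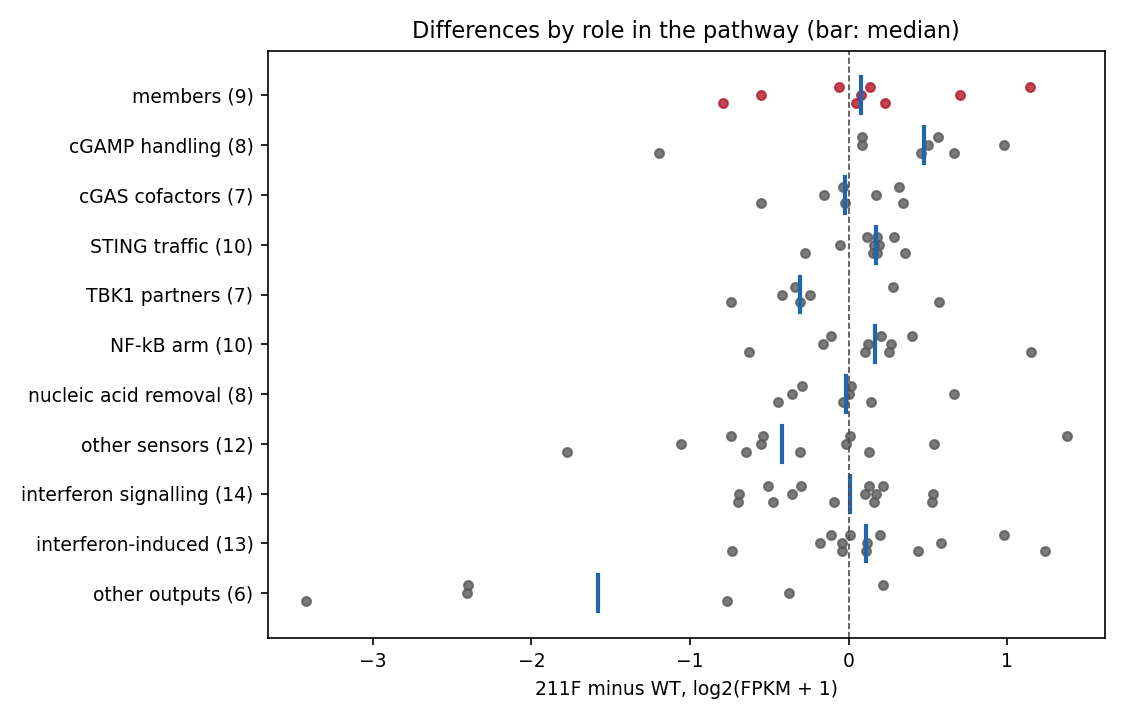
Differences between genotypes, 211F minus WT on the log2(FPKM + 1) scale, for the tested genes of each role (number in brackets), 1 point for each gene and a bar at the median. The median of cGAMP handling genes is 0.48 and that of the members 0.08, while the 6 other output genes spread from -3.42 to 0.22.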

How the data were processed

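The authors deposited 1 table of FPKM values for 50679 Ensembl gene identifiers in 4 libraries (2 of 211F, 2 of WT). TopHat2 2.0.13, DESeq2 and GRCm38 are named per the submitters' processing notes, whose full text was not used here. The sources used here do not state how FPKM was computed, nor the annotation and strand setting. The library kit was strand-specific, per the labels' protocols. FPKM sums were 544399 to 564977, and the table holds no counts. In 1974 genes with 1 annotated transcript of at least 3000 bases, 91.2% to 93.3% of low values fell within 0.1 of a whole fragment, which gave the relative depths if the columns were not rescaled.

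Symbols were matched by identifier for 50369 genes. Positions and exon overlaps come from GENCODE M21 (GRCm38), promoters from RefSeq (GRCm38.p6), matched by symbol and searched for 8 of the 10 genes. Ccl5 had no promoter entry, and the search left out chromosome 18, where Sting1 lies. Genes averaging 1 FPKM or more were tested on log2(FPKM + 1) with limma 3.58.1 in R 4.3.3 (two-sided, intensity trend, Benjamini-Hochberg adjustment) without a replicate block; the fit was tested on simulated data. This scale understates changes of low genes. The members, wider lists and markers were chosen with earlier results of these data known. Named were all members, up to 6 separated genes of the wider list in each direction by smallest p, and listed genes that act beside a member. Some genes that this rule took are left out of the text. Ccl2, and genes named for a shared order or a level of 0, were chosen after their values were seen. Alternatives were other pseudocounts, filters, scalings and designs, and each library left out.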

Additional observations from a re-analysis of the deposited data

How the results depend on the processing

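limma called 0 genes, 0 members and 0 wider pathway genes in all 14 alternatives, of which the crossed pairing was chosen after seeing the data; before adjustment 241 genes had a p below 0.05, against 745 with no filter, 142 with the replicate block, 520 with the crossed pairing and 226 to 843 when each library was left out. Cgas kept its positive sign (0.77 to 1.49) and Irf7 its negative sign (-1.12 to -0.46), which groups that do not overlap largely fix, and of 126 member values 14 turned. The cause was not tested.

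The median difference of the tested members, 0.08, was 0.65 with an epithelial covariate and -0.52 (without WT 1) to 0.78 (without WT 2) when each library was left out. Ccl5 and Cxcl10 turned to -0.27 and -0.29 with a pseudocount of 5, Tbk1 and Irf3 to 0.067 and -0.17 with the covariate. The covariate also gave 2.76 for Ccl5, 1.66 for Cxcl10, 0.65 for Sting1 and 1.26 for Trex1, against 0.23, 0.05, 0.13 and 0.70 without it. Since WT 2 alone nearly lacked epithelial transcripts, the covariate largely sets WT 2 aside. Leaving out each library gave ranges of -3.05 to 3.51 for Ccl5, -2.01 to 2.10 for Cxcl10, -0.52 to 0.78 for Sting1, -0.23 to 0.11 for Tbk1, -0.23 to 0.39 for Irf3, -1.19 to 0.087 for Samhd1 and 0.019 (without WT 1) to 1.38 (without WT 2) for Trex1. A lone library is then assumed to vary like the other genotype. The lowest adjusted p of any member was 0.675 (Cxcl10 without WT 1).

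Whether equal replicate numbers mark paired libraries is not stated in the labels. Across genes, which are not independent, the deviations of libraries with the same number correlated at r = -0.465. In this balanced design a replicate block cannot move a difference, so Cgas stood at 1.15 by construction, and its unadjusted limma p was 0.0830 with the block, against 0.0406 without it. With the replicate block 0 genes were called. With the crossed pairing 0 genes were called. Fragment steps limit what can be read of Ifnb1.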
